A study of Mus musculus with 8 samples.

Results

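The mitochondrial ribosomal protein genes were taken as the protein-coding genes whose GENCODE M21 symbol begins with Mrpl or Mrps followed by a digit. There are 78 of them among the 48440 genes of the count tables. The study sequenced RNA of 4 genotypes of mouse ES cells after 1 day of differentiation, 2 libraries for each. Its stated aim was a first look at how the Tbxt transcript without exon 6 acts on known target genes of Tbxt. Tbxt is the gene of the mesoderm transcription factor Brachyury. The cells are of the MK6 line, from C57BL/6J mice, and were differentiated without feeder cells in N2/B27 medium with the GSK3 inhibitor CHIR99021. WT cells carry unmodified Tbxt. Cells of the delE6/delE6 genotype lack exon 6 on both alleles and came as 2 different clones, and delE6/+ cells lack it on 1 allele. Cells of the insASAY genotype carry human AluSx1 and AluY elements on both alleles, in introns 5 and 6, and were selected as clones. By the paper's methods, exon 6 was deleted in cells grown without feeder cells, and the Alu elements were inserted in cells grown on feeder cells. The sources used here do not say how many clones stand behind the 2 libraries of WT, delE6/+ or insASAY. Each comparison includes at least 1 of these genotypes, so a difference between genotypes cannot be told apart from a difference between clones. The p-values measure the spread between these libraries.

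The mitochondrial ribosome, or mitoribosome, is the ribosome inside mitochondria. It translates the few mRNAs encoded by mitochondrial DNA, all of which code for subunits of the respiratory chain and ATP synthase. Its rRNAs are made in the organelle, but its proteins are encoded in the nucleus, made in the cytosol and imported. Many of these proteins have a counterpart in bacterial ribosomes, and others were added in the mitochondrial lineage.

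By the standard names of the proteins, 51 of the 78 genes encode proteins of the large subunit, including Mrps30 and Mrps18a despite their symbols, and 26 encode proteins of the small subunit. The remaining gene, Mrps36, encodes a protein now also known as a subunit of the oxoglutarate dehydrogenase complex. Of the 77 ribosomal genes, 46 encode proteins with a bacterial counterpart and 31 encode proteins specific to mitochondria. The genes lie on 17 chromosomes, 5 of them on chromosome 3.

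Each library held between 24618587 and 28445952 reads on genes. Of all genes, 17049 passed the filter on low counts, and the members made up 77 of them. Tbxt itself, listed as T, was measured at 1.70 and 1.56 CPM (counts scaled to a common library size) in WT, 1.48 and 2.21 in delE6/+, 1.05 and 0.807 in delE6/delE6, and 1.09 and 1.06 in insASAY libraries. A count per gene does not show whether exon 6 was present, so it does not check the labels. The 7 ES cell and epiblast markers summed to 744 to 746 CPM in WT, 534 to 636 in delE6/delE6, 666 to 681 in insASAY, and 665 to 668 in delE6/+. Among them Pou5f1 stood at 156 to 295 CPM over the 8 libraries and Nanog at 32.9 and 38.7 CPM in WT and 13.8 to 22.2 CPM in the mutants, while the epiblast markers Fgf5 and Otx2 stayed under 1 CPM. The 7 did not move together against WT. By the adjusted p of the edgeR test described below, 0 were higher and 2 lower in delE6/delE6. In delE6/+ 2 were higher and 3 lower, and in insASAY 1 and 3. These are 28.6%, 71.4% and 57.1% of the list, against 35.4%, 31.6% and 47.3% of all tested genes. The 6 primitive streak and early mesoderm markers summed to 20.3 to 21.4 CPM in WT and 12.9 to 15.9 CPM in delE6/+. They summed to 25.6 to 26.4 CPM in delE6/delE6 and 19.7 to 22.5 CPM in insASAY. Eomes weighs most in this sum, at 6.36 to 20.4 CPM over the 8 libraries, followed by Wnt3 at 2.05 to 3.54 CPM. Of the 5 tested, 1 was higher and 1 lower than WT in delE6/delE6 by the same adjusted p. In delE6/+ 1 was higher and 2 lower, and in insASAY 1 and 1. These are 40%, 60% and 40% of the 5, against 35.4%, 31.6% and 47.3% of all tested genes. The 4 extraembryonic endoderm markers summed to 15 CPM in both WT libraries and 17.2 to 17.5 CPM in delE6/+. In delE6/delE6 these 4 summed to 9.9 to 12.4 CPM and in insASAY to 12.2 to 12.5 CPM. The 8 embryonic fibroblast markers summed to 39.2 and 44.2 CPM in WT and 38.1 to 38.7 CPM in delE6/+ libraries. They summed to 27.7 to 35.3 CPM in delE6/delE6 and to 18.9 CPM in both insASAY libraries. Among them Col3a1, Lum and Postn stayed under 1 CPM in all 8 libraries. The 4 neural progenitor markers summed to 30.8 to 32.2 CPM in delE6/+ against 8.52 to 11.3 CPM in the other 6 libraries. The part of these differences in the results below was not tested.

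The 77 tested members had mean levels from 7.67 CPM (Mrps18c) to 112 CPM (Mrpl45), with a median of 41.2 CPM, and no tested member had fewer than 141 reads in any library. Per kilobase of exon, 75 of the 77 lay above the median of all tested genes and 14 lay in the top 10%. On this scale the 3 highest were Mrpl2, at 63.5 CPM per kilobase, Mrpl28 and Mrpl12, both at 59.2. Mrpl2 encodes the large-subunit protein uL2m, which lies near the site of peptide bond formation, and Mrpl12 encodes the stalk protein bL12m, which binds translation factors. The 3 lowest were Mrpl48 at 4.25, Mrpl32 at 3.81 and Mrpl33 at 1.45 CPM per kilobase. Exon length here is that of all annotated exons together, so genes with long rare exons come out low on this scale.

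The member without a value is Mrpl53, which encodes the stalk protein mL53. It had 0 reads in all 8 libraries, on either strand and without regard to strand. In the annotation, 88.0% of its exon bases are shared on the same strand with exons of Gm42688, and a read that falls on 2 genes is counted for neither. Gm42688 itself received between 3 and 15 reads per library. No level can be given for Mrpl53 from these counts. Smaller shares of exon bases are shared on the same strand for Mrps34 (37.0%, with Nme3), Mrps18c (23.2%, with Gm43511), Mrps24 (15.4%, with Urgcp) and Mrps6 (10.4%, with Slc5a3). The tables also list 5 pseudogenes named after members, and the highest count of any of them was 46 reads in a library.

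The promoters are shown because nuclear genes of mitochondrial proteins are known for binding sites of the factors NRF1, GABPA (of the ETS family) and YY1. RefSeq promoters on GRCm38.p6, each running from 250 bases before the gene's start to 50 bases after it, were matched by symbol for 69 of the 78 members. No entry was matched for Mrpl4, Mrpl13, Mrpl15, Mrpl19, Mrpl38, Mrpl54, Mrps28, Mrps34 and Mrps35. Searched on both strands, the ETS letters CCGGAAGT were found in 12 of 69 member promoters (17.4%), against 8.44% of the 11560 tested genes with a promoter in the table and 4.31% of all 27025 symbols. The NRF1 letters GCATGCGC were found in 8 (11.6%), against 5.70% of tested genes and 3.05% of all symbols. The YY1 letters AAGATGGC were found in 12 (17.4%), against 4.86% and 3.19%. The E-box CACGTG was found in 5 (7.25%), against 11.7% and 8.09%. At least 1 of the ETS, NRF1 and YY1 motifs stood in 29 of 69 member promoters (42.0%), against 17.6% of tested genes and 9.91% of all symbols. These are matches of letters with no test, and nothing was measured on the binding of any factor. The stretches just upstream of 5 members described below, taken from those whose stretch holds no annotated exon, are given 5′ to 3′ on the strand of the gene, on GRCm38.p6, with a motif of the 4 searched in capitals:
Mrpl24, chr3:87919386-87919505, plus strand: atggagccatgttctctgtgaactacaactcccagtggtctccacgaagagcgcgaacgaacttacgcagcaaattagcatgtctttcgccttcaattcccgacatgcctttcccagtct
Mrpl9, chr3:94443198-94443317, plus strand: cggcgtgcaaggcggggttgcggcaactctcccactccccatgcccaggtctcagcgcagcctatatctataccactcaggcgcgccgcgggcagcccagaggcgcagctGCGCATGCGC
Mrpl28, chr17:26123380-26123499, plus strand: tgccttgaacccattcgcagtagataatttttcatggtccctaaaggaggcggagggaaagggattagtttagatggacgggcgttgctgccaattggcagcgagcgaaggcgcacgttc
Mrpl43, chr19:45006443-45006562, minus strand: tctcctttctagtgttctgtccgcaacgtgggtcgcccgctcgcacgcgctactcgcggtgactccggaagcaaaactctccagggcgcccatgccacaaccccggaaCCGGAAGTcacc
Mrps18c, chr5:100798509-100798626, plus strand: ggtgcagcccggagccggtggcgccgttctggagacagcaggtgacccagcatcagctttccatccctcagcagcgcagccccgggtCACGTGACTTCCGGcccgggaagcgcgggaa
The stretch of Mrpl9 ends in an NRF1 match next to the start of the gene, that of Mrpl43 holds an ETS match and that of Mrps18c an E-box match directly followed by an ETS match. Those of Mrpl24 and Mrpl28 hold none of the 4 motifs.

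As a group, the members had totals within a few percent of each other in the 4 genotypes. Their summed level was 3503.1 and 3478.8 CPM in WT, 3368.2 and 3431.9 CPM in delE6/+, 3415.6 and 3350.0 CPM in delE6/delE6, and 3447.1 and 3477.6 CPM in insASAY libraries. On this scale genotype means were 97.4%, 96.9% and 99.2% of the WT mean in delE6/+, delE6/delE6 and insASAY. The order of the libraries depends on the scaling. As a share of all reads on genes, the members held 0.341% and 0.339% in WT, 0.338% and 0.341% in delE6/+, 0.338% and 0.335% in delE6/delE6, and 0.355% and 0.358% in insASAY, so that the insASAY libraries lay above WT on that scale and below it in CPM. The balance of the subunits was as steady. Small-subunit genes summed to 0.420 ± 0.0106 (SD, n = 2) of the large-subunit total in WT, 0.416 ± 0.000707 in delE6/+ and 0.424 ± 0.000707 in delE6/delE6, and to 0.421 in both insASAY libraries.

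**Figure D1:**
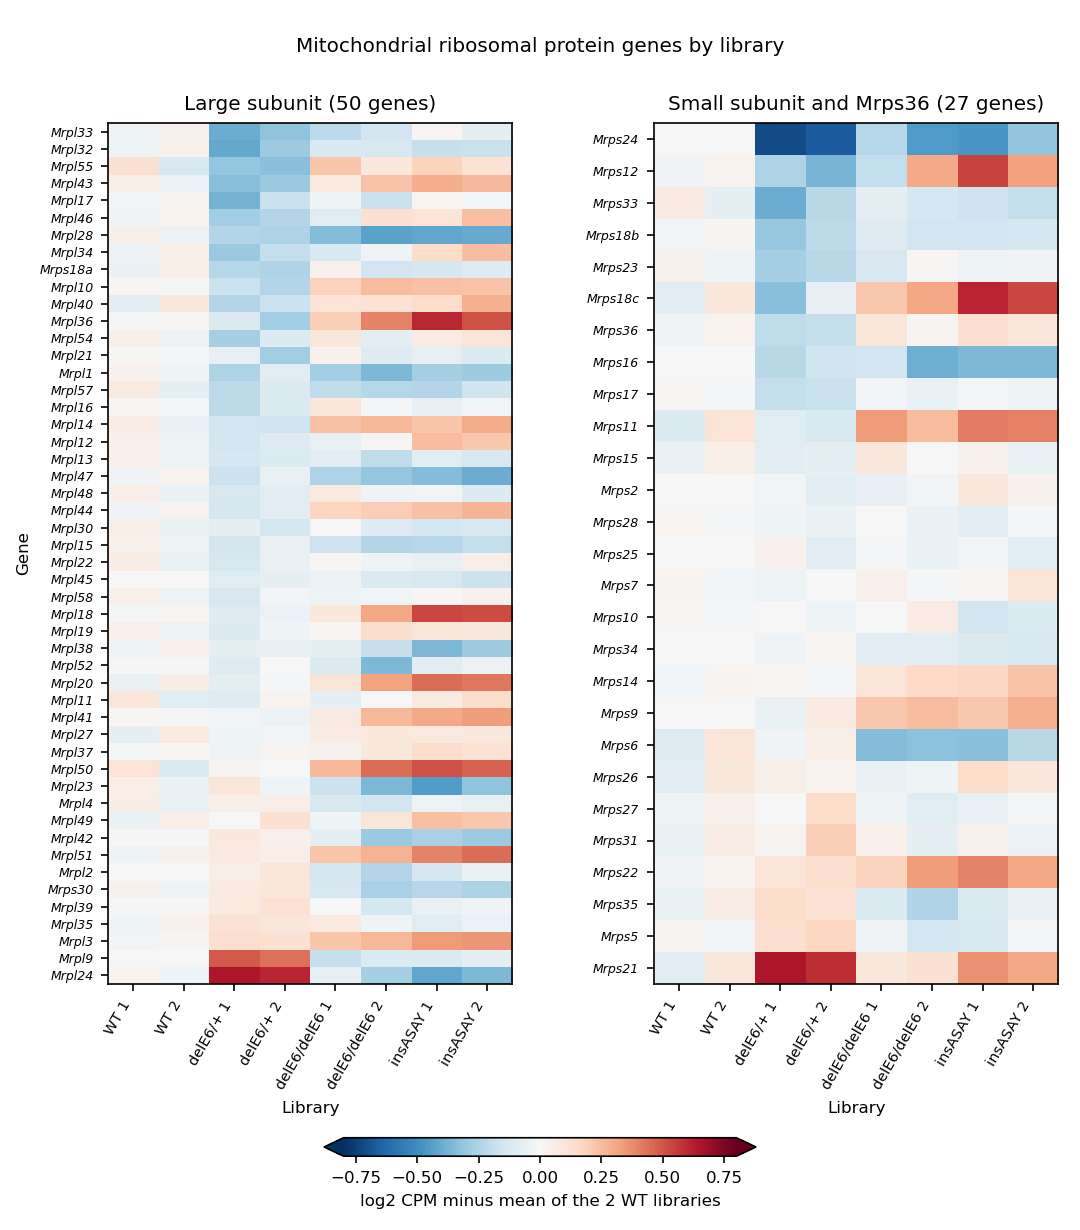
Heat map of the 77 tested members (rows) in the 8 libraries (columns), coloured by the log2 CPM of a library minus the mean of the 2 WT libraries, with large-subunit genes on the left and small-subunit genes with Mrps36 on the right, each sorted by the delE6/+ mean. Most cells are pale, Mrpl24, Mrpl9 and Mrps21 are red in both delE6/+ libraries, and Mrps24 is blue in every mutant library.

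Replicates of a genotype differed little. The median difference of a member between the 2 libraries of a genotype was 0.07 on the log2 scale in WT, 0.05 in delE6/+, 0.09 in delE6/delE6 and 0.04 in insASAY, and no member differed by more than 0.5. The widest gap was that of Mrps12, which encodes the decoding-site protein uS12m, between the 2 delE6/delE6 clones: 17.8 and 25.2 CPM, 0.50 apart on the log2 scale.

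Few members differed between genotypes by the thresholds of the study, a log2 fold change past 0.5 and an adjusted p under 0.05 (edgeR quasi-likelihood test, Benjamini-Hochberg adjustment over all 17049 tested genes). In delE6/delE6 against WT, 0 of 77 members were higher and 0 lower past both thresholds, against 6.12% and 6.59% of all tested genes. The adjusted p alone was passed by 12 higher and 12 lower members (15.6% each), against 18.3% and 17.1% of all tested genes. Of these 24, 6 still passed it without the first WT library, 8 without the second and 13 without the second delE6/delE6 library. DESeq2 also put 0 members past both thresholds, and had 7 higher and 7 lower by its adjusted p. In edgeR 13 higher and 20 lower members had an unadjusted p under 0.05.

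In delE6/+ against WT, 2 members were higher and 1 lower past both thresholds, against 6.60% and 6.89% of all tested genes. Without the fold threshold, 3 were higher (3.9%) and 15 lower (19.5%), against 15.4% and 16.2%. The count of 18 was 8 or 9 without the first or second WT library, 8 or 10 without the first or second delE6/+ library, and 29 or 30 without the first or second delE6/delE6 library. The 3 higher ones all lie on chromosome 3, and among the 72 tested members of other chromosomes 0 were higher and 15 lower by the adjusted p in edgeR, with 2 higher and 25 lower at an unadjusted p under 0.05. DESeq2 had 0 higher and 8 lower among these 72 by its adjusted p.

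In insASAY against WT, 3 members were higher and 0 lower past both thresholds, against 11.5% and 9.85% of all tested genes. The adjusted p alone gave 21 higher (27.3%) and 15 lower (19.5%), against 23.2% and 24.1%, and without the first WT library the count of 36 was 23. DESeq2 also gave 3 higher and 0 lower past both thresholds, and the unadjusted p in edgeR was under 0.05 for 23 higher and 17 lower members. Scaled by library totals alone, edgeR put 7 higher and 0 lower past both thresholds. In every comparison with WT the share of members past both thresholds was thus under the background share. The adjusted p, in either direction, was passed by 31.2% of members in delE6/delE6, 23.4% in delE6/+ and 46.8% in insASAY. The shares of all tested genes were 35.4%, 31.6% and 47.3%. Among tested genes whose mean was 2 CPM or more they were 42.6%, 37.5% and 55.8%.

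The size of the differences was small throughout. The 95% interval of the log2 fold change against WT lay inside 0.5 in both directions for 72 members in delE6/delE6, 69 in delE6/+ and 59 in insASAY cells (93.5%, 89.6% and 76.6% of the 77). The same held for 64.1%, 65.6% and 55.8% of the 12837 tested genes whose mean was 2 CPM or more, as it was for all tested members. The median log2 fold change of the members was -0.03 in delE6/delE6, -0.08 in delE6/+ and -0.02 in insASAY against WT, where that of all tested genes was -0.01, -0.0006 and -0.01. Scaled by library totals alone, it was 0.0002 in delE6/delE6 and 0.0558 in insASAY, where that of all tested genes was 0.0227 and 0.075. With offsets for exon length and GC content it was -0.0425 in delE6/+, against 0.0024 over all tested genes. The median in size of the members, without regard to sign, was 0.12, 0.11 and 0.15 in the main fit. Against this it was 0.23, 0.21 and 0.29 over all tested genes and 0.20, 0.18 and 0.25 over those whose mean was 2 CPM or more.

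**Figure D2:**
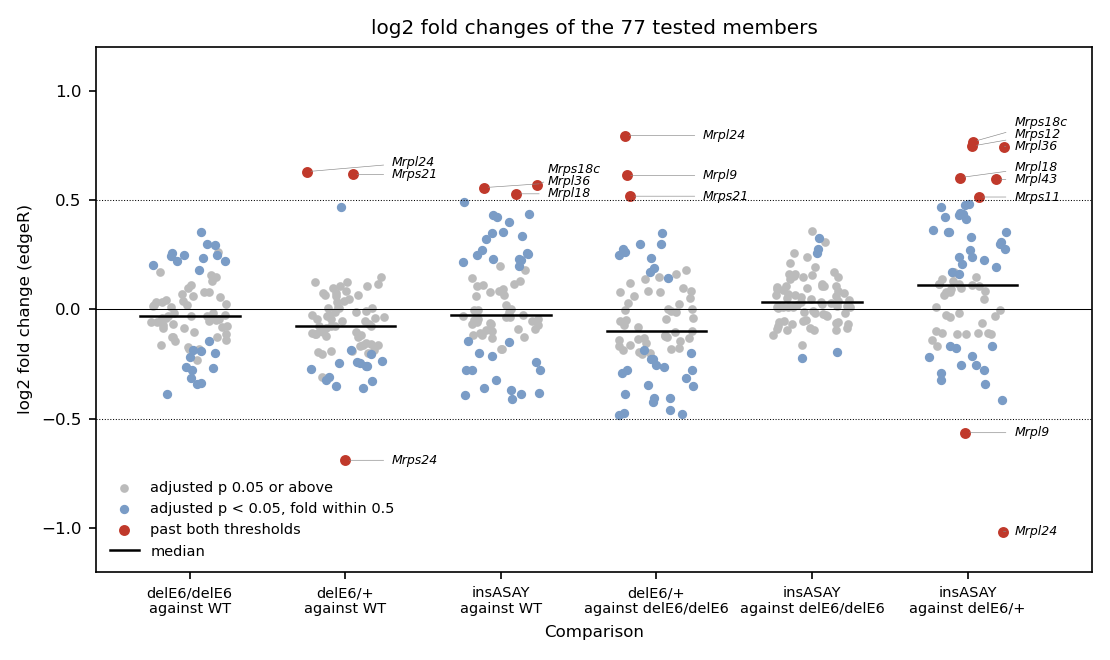
Each point is the edgeR log2 fold change of 1 of the 77 tested members in 1 of the 6 comparisons, spread sideways for legibility, with dotted lines at the thresholds of 0.5 in size and a bar at the median. Labels name the members past both thresholds, 0 in both comparisons without labels and 8 in insASAY against delE6/+.

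Members of both subunits passed the adjusted p on either side of WT. In delE6/delE6 against WT, 9 of 50 tested large-subunit genes were higher and 9 lower by the adjusted p, and 3 of 26 small-subunit genes were higher and 3 lower, against 18.3% and 17.1% of all tested genes. In insASAY the counts were 14 higher and 11 lower for the large subunit and 7 higher and 4 lower for the small subunit, where the shares of all tested genes were 23.2% and 24.1%. In delE6/+ they were 2 and 10, and 1 and 5, against 15.4% and 16.2%. Of the 30 tested genes of mitochondria-specific proteins, 0 passed both thresholds in each of the 3 comparisons with WT, by edgeR and by DESeq2, and of the 46 genes of proteins with a bacterial counterpart 0, 3 and 3 passed in edgeR, against 12.7%, 13.5% and 21.3% of all tested genes. The mitochondria-specific genes had median log2 fold changes of -0.04, -0.04 and -0.03 in delE6/delE6, delE6/+ and insASAY. Their adjusted p passed for 6, 6 and 14 of the 30, against 35.4%, 31.6% and 47.3% of all tested genes. In DESeq2 it passed for 3 higher and 0 lower, 0 and 3, and 7 and 3. Their unadjusted p in edgeR was under 0.05 for 5 higher and 7 lower, 0 and 9, and 9 and 6.

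The exit of the polypeptide tunnel is lined by 6 members, and one of them had the smallest adjusted p of all members in delE6/+ against WT. Mrpl24, which encodes uL24m at the tunnel exit, was measured at 87.7 and 84.7 CPM in WT, 135 and 132 CPM in delE6/+, 82.3 and 71.7 CPM in delE6/delE6, and 64.6 and 67.3 CPM in insASAY libraries. The 2 delE6/+ libraries stood above all the others, and the insASAY libraries stood below them all. Its log2 fold change against WT was 0.63 ± 0.06 (SE) in delE6/+ (adjusted p = 7.66e-06), -0.16 ± 0.06 in delE6/delE6 (adjusted p = 0.0574) and -0.39 ± 0.06 in insASAY (adjusted p = 0.000305).

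The other 5 tunnel-exit genes did not pass both thresholds against WT. Mrpl47, which encodes uL29m, went from 38.7 and 40.2 CPM in WT to 33.3 and 31.8 CPM in delE6/delE6 and 31.1 and 30.0 CPM in insASAY libraries, without overlap. Its log2 fold changes were -0.28 ± 0.07 and -0.37 ± 0.07 (adjusted p = 0.00765 and 0.000747). Mrpl23, which encodes uL23m, had log2 fold changes of -0.27 ± 0.08 in delE6/delE6 (adjusted p = 0.0235) and -0.38 ± 0.08 in insASAY (adjusted p = 0.00196). Mrpl45, whose protein anchors the mitoribosome to the inner membrane, had one of -0.15 ± 0.05 in insASAY (adjusted p = 0.0203). By the adjusted p, 4 of the 6 tunnel-exit genes were lower in insASAY cells, where 24.1% of all tested genes were, and 2 of them in delE6/delE6 cells, where 17.1% were. In delE6/+ cells Mrpl24 was higher and 1 of the 6 was lower, Mrpl17 (bL17m), at -0.27 ± 0.07 (adjusted p = 0.00848), against 15.4% and 16.2%. With 6 genes and no test of the list, nothing is read from these counts.

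Chromosome 3 holds 5 members, and 3 of them were higher in delE6/+ cells. Mrps21, which encodes the small-subunit protein bS21m, stood at 20.4 and 23.1 CPM in WT, 34.0 and 32.7 CPM in delE6/+, 23.0 and 23.6 CPM in delE6/delE6, and 28.0 and 27.0 CPM in insASAY libraries. Its delE6/+ libraries were the highest and its insASAY libraries came next. The log2 fold change against WT was 0.62 ± 0.08 in delE6/+ (adjusted p = 6.3e-05), 0.10 ± 0.08 in delE6/delE6 (adjusted p = 0.361) and 0.34 ± 0.08 in insASAY (adjusted p = 0.00344).

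Mrpl9, which encodes bL9m of the large subunit, stood at 74.0 and 73.6 CPM in WT, 104 and 100.3 CPM in delE6/+, 64.9 and 68.4 CPM in delE6/delE6, and 68.1 and 69.9 CPM in insASAY libraries. Only the delE6/+ libraries rose above WT. Their log2 fold change was 0.47 ± 0.05 (adjusted p = 1.92e-05), just inside the fold threshold, and that of delE6/delE6 cells was -0.15 ± 0.05 (adjusted p = 0.0437). Mrpl47 and Mrps28, the other members of the chromosome, had log2 fold changes of -0.12 ± 0.07 (adjusted p = 0.223) and -0.04 ± 0.07 (adjusted p = 0.687) in delE6/+. Mrps28, which encodes bS1m, stayed between 25.6 and 27.4 CPM in all 8 libraries.

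Most genes around these 3 members also lay above WT in delE6/+ cells. Mrpl24 starts at chr3:87919506, Mrpl9 at chr3:94443318 and Mrps21 spans from chr3:95862634, all on GRCm38. Within 2 Mb of Mrpl24 there were 78 other tested genes with a mean of 2 CPM or more, and their median log2 fold change in delE6/+ against WT was 0.44, with 72 of them above 0. Around Mrpl9 the median was 0.26 over 55 genes and around Mrps21 it was 0.39 over 68 genes, and these last windows share genes. Around Mrpl47, from chr3:32725397, it was -0.04 over 18 genes, and around Mrps28, from chr3:8802146, it was -0.09 over 13 genes. In delE6/delE6 and insASAY cells the 5 medians ran from -0.06 to -0.002 and from -0.15 to -0.0004. Copy number was not measured in these libraries, and the part of a regional difference in the levels of the 3 members was not tested.

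**Figure D3:**
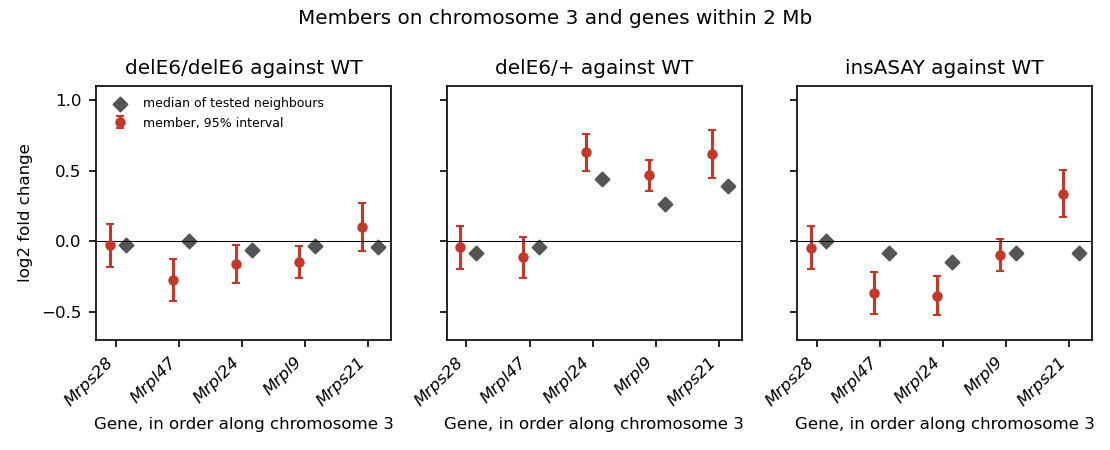
log2 fold change against WT of the 5 members of chromosome 3, in their order along the chromosome, with 95% intervals (circles), beside the median of tested genes within 2 Mb of each (diamonds), in the 3 mutant genotypes. In delE6/+ cells Mrpl24, Mrpl9 and Mrps21 and their neighbours lie above 0 together, and in the other genotypes the medians of the neighbours lie near 0.

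The member with the largest fall against WT was Mrps24, which encodes uS3m, the small-subunit protein at the mRNA entry. It was measured at 54.5 and 54.4 CPM in WT, 33.1 and 34.4 CPM in delE6/+, 46.5 and 39.8 CPM in delE6/delE6, and 39.4 and 43.7 CPM in insASAY libraries. All 6 mutant libraries were below both WT libraries, and the delE6/+ libraries were below the others. The log2 fold change was -0.69 ± 0.08 in delE6/+ (adjusted p = 3.1e-05), -0.34 ± 0.08 in delE6/delE6 (adjusted p = 0.00544) and -0.39 ± 0.08 in insASAY (adjusted p = 0.00128). Its 15.4% of exon bases shared with Urgcp were left out of the count of either gene.

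A second member was lower in all 3 mutant genotypes by the adjusted p, and 0 members were higher in all 3. These are 2.6% and 0% of the members, against 3.59% and 3.37% of all tested genes. Mrpl28, which encodes bL28m, stood at 101 and 93.9 CPM in WT, 82.4 and 81.8 CPM in delE6/+, 76.4 and 72.2 CPM in delE6/delE6, and 72.8 and 73.6 CPM in insASAY libraries, so that the WT libraries stood above all the others. The log2 fold change was -0.24 ± 0.05 in delE6/+ (adjusted p = 0.00362), -0.39 ± 0.05 in delE6/delE6 (adjusted p = 0.000254) and -0.41 ± 0.05 in insASAY (adjusted p = 6.09e-05). The 3 comparisons share the 2 WT libraries, so they are not independent of each other.

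The members past both thresholds in insASAY cells were Mrpl18, Mrpl36 and Mrps18c. Mrpl18 encodes uL18m of the central protuberance, the part of the large subunit that faces the head of the small one. It was measured at 42.3 and 43.1 CPM in WT, 39.7 and 41.4 CPM in delE6/+, 45.3 and 52.9 CPM in delE6/delE6, and 61.9 and 61.3 CPM in insASAY libraries. The insASAY libraries stood above all the others, with a log2 fold change of 0.53 ± 0.07 against WT (adjusted p = 7.88e-05). With offsets for exon length and GC content it was 0.47, inside the fold threshold. The other 4 genes of the central protuberance had log2 fold changes between -0.32 (Mrpl38) and 0.22 (Mrpl40).

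Mrpl36, which encodes the small large-subunit protein bL36m, stood at 17.5 and 17.9 CPM in WT, 16.4 and 14.7 CPM in delE6/+, 20.2 and 23.3 CPM in delE6/delE6, and 26.8 and 25.2 CPM in insASAY libraries. The delE6/delE6 libraries lay between WT and insASAY without overlap. The log2 fold change was 0.56 ± 0.09 in insASAY (adjusted p = 0.000304), 0.30 ± 0.09 in delE6/delE6 (adjusted p = 0.0246) and -0.19 ± 0.10 in delE6/+ (adjusted p = 0.16).

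Mrps18c is 1 of 3 genes whose proteins are homologous to bacterial bS18 and take different places in the mitoribosome. Mrps18c encodes bS18m itself, Mrps18b encodes mS40 of the small subunit and Mrps18a encodes mL66 of the large subunit. The level of Mrps18c was 6.32 and 7.14 CPM in WT, 5.34 and 6.42 CPM in delE6/+, 7.81 and 8.32 CPM in delE6/delE6, and 10.2 and 9.73 CPM in insASAY libraries. The insASAY libraries were the highest and the delE6/+ libraries overlapped with WT, and the log2 fold change in insASAY was 0.57 ± 0.13 (adjusted p = 0.00247). Without the first WT library it was 0.48, inside the fold threshold. In delE6/+ the log2 fold changes of Mrps18c, Mrps18a and Mrps18b had the same sign, at -0.20 ± 0.14 (adjusted p = 0.301), -0.23 ± 0.08 (adjusted p = 0.0341) and -0.26 ± 0.06 (adjusted p = 0.00348). In insASAY Mrps18a and Mrps18b had -0.12 ± 0.08 (adjusted p = 0.221) and -0.14 ± 0.06 (adjusted p = 0.0464).

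**Figure D4:**
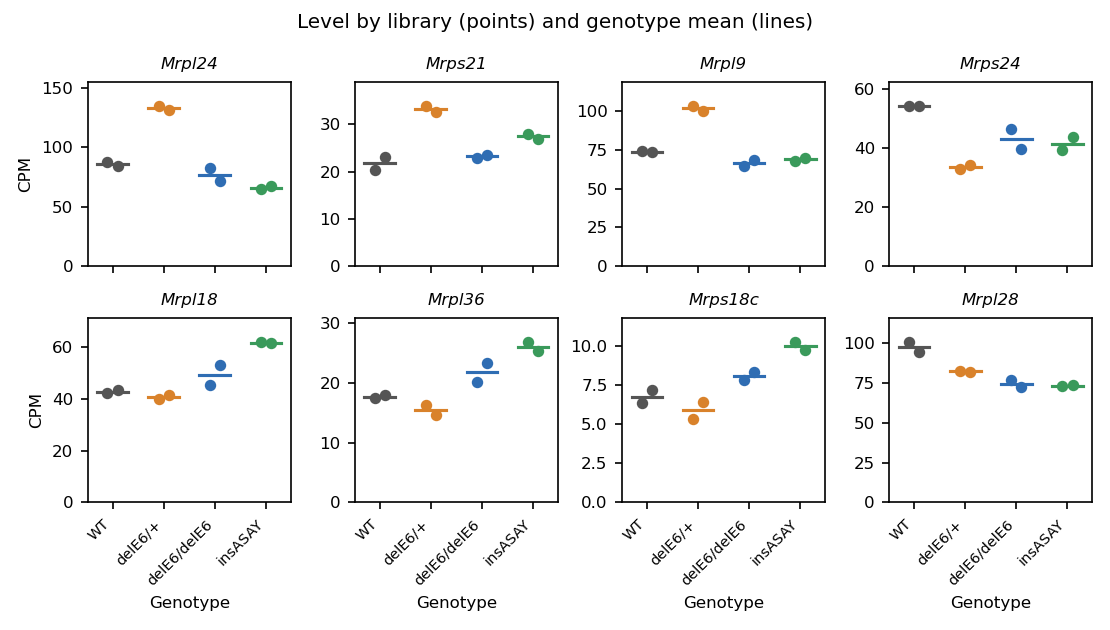
Level in CPM (vertical axes from 0) of 8 members by genotype, with a point for each library and a line at the genotype mean of 2. Mrpl24, Mrps21 and Mrpl9 are highest in delE6/+, Mrpl18, Mrpl36 and Mrps18c are highest in insASAY, and Mrps24 and Mrpl28 are highest in WT.

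Further members passed the adjusted p in the same direction in delE6/delE6 and insASAY cells with smaller differences. Mrpl50, which encodes mL50, had log2 fold changes of 0.35 ± 0.08 in delE6/delE6 (adjusted p = 0.00532) and 0.49 ± 0.08 in insASAY (adjusted p = 0.000334). Mrpl51, which encodes mL51, had 0.25 ± 0.06 (adjusted p = 0.00842) and 0.42 ± 0.06 (adjusted p = 0.000149). Mrpl3, which encodes uL3m near the peptidyl transferase centre, had 0.24 ± 0.06 (adjusted p = 0.00501) and 0.35 ± 0.06 (adjusted p = 0.000252). Mrpl10, the stalk base protein uL10m, had 0.22 ± 0.06 (adjusted p = 0.00843) and 0.23 ± 0.06 (adjusted p = 0.004), and was lower in delE6/+ at -0.20 ± 0.06 (adjusted p = 0.0148).

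On the other side, Mrpl1 (uL1m) had -0.31 ± 0.07 in delE6/delE6 (adjusted p = 0.00454), and Mrpl38 (mL38 of the central protuberance) had -0.32 ± 0.05 in insASAY (adjusted p = 0.000337). In delE6/+ cells the smallest adjusted p among lower members, after Mrps24, were those of Mrps18b, Mrpl28 and Mrpl43. Mrpl43, which encodes mL43, had a log2 fold change of -0.32 ± 0.07 there (adjusted p = 0.00393). Mrps5, the decoding-side protein uS5m, stood at 94.0 and 96.7 CPM in delE6/+ against 87.5 and 84.6 CPM in WT, a log2 fold change of 0.15 ± 0.06 that did not pass (adjusted p = 0.0687). Mrps36 had log2 fold changes of 0.06, -0.20 and 0.11 in delE6/delE6, delE6/+ and insASAY and passed in none of them (adjusted p = 0.59, 0.073 and 0.244). The low-level genes Mrpl32 (bL32m) and Mrpl33 (bL33m) were lower in delE6/+, at -0.35 ± 0.08 (adjusted p = 0.00538) and -0.36 ± 0.10 (adjusted p = 0.0171), while Mrpl48 (mL48) passed in no comparison. In all, 29 of the 77 members passed the adjusted p in none of the 3 comparisons with WT, and 20 passed it in none of the 6 comparisons (37.7% and 26%), against 34.3% and 25.3% of all tested genes. Among tested genes whose mean was 2 CPM or more the shares were 24.4% and 16.5%.

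The mutant lines were also compared with each other, with the spread estimated over all 8 libraries. In delE6/+ against delE6/delE6, 3 members were higher and 0 lower past both thresholds, against 11.2% and 11% of all tested genes. Without the fold threshold, 13 were higher and 20 lower (16.9% and 26%), against 22.9% and 24.2%, and without the first delE6/+ library the count of 33 was 19. The 3 were Mrpl24, with a log2 fold change of 0.79 ± 0.06 (adjusted p = 7.04e-07), Mrpl9, with 0.61 ± 0.05 (adjusted p = 1.28e-06), and Mrps21, with 0.52 ± 0.08 (adjusted p = 0.000143), and all 3 lie on chromosome 3. DESeq2 also gave 3 higher and 0 lower, and in edgeR 29 members were lower at an unadjusted p under 0.05. Mrps21 was not past both thresholds with offsets for length and GC content, at 0.49, or without the first delE6/+ library. Without the first delE6/delE6 library the count was 6, of which 2 were higher and 4 lower, and Mrps21 was at 0.49.

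In insASAY against delE6/delE6, 0 members were higher and 0 lower past both thresholds, against 2.79% and 2.38% of all tested genes. The adjusted p alone gave 3 higher and 2 lower (3.9% and 2.6%), against 5.6% and 9.8%. This count of 5 was 16 without the second delE6/delE6 library, 0 or 1 without the first or second insASAY library, and 3 without any single WT or delE6/+ library. DESeq2 also gave 0 past both thresholds, and 14 members had an unadjusted p under 0.05 in edgeR. The smallest adjusted p was that of Mrpl12 (bL12m), at a log2 fold change of 0.26 ± 0.05 (adjusted p = 0.0053), from 85.4 and 89.5 CPM in delE6/delE6 to 105 and 103 CPM in insASAY libraries. For 75 of the 77 members (97.4%) the 95% interval lay inside 0.5 in both directions, against 74.5% of tested genes whose mean was 2 CPM or more. Without the second delE6/delE6 library, the clone with the higher level of Mrps12, that gene alone passed both thresholds.

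The most members differed in insASAY against delE6/+, where 6 were higher and 2 lower past both thresholds, against 14.6% and 13% of all tested genes. Without the fold threshold, 30 were higher and 14 lower (39% and 18.2%), against 26.8% and 26.1%, and without the first delE6/+ library the count of 44 was 28. The lower ones past both thresholds were Mrpl24, at -1.02 ± 0.06 (adjusted p = 1.05e-07), and Mrpl9, at -0.56 ± 0.05 (adjusted p = 1.93e-06). Among the higher ones, Mrpl43 had 0.59 ± 0.07 (adjusted p = 1.7e-05), Mrpl18 had 0.60 ± 0.07 (adjusted p = 1.87e-05) and Mrpl36 had 0.74 ± 0.09 (adjusted p = 2.52e-05). Mrpl43 stood at 30.2 and 31.1 CPM in delE6/+ and 46.8 and 45.7 CPM in insASAY libraries, on either side of the WT libraries at 39.4 and 37.1 CPM. With offsets for length and GC content Mrpl43 was not past both thresholds. The remaining 3 were Mrps18c, Mrps12 and Mrps11. Mrps11 was not past both thresholds with unstranded counts, with offsets for length and GC content, or without the second delE6/+ library. The median log2 fold change over the members was 0.11, against 0.003 over all tested genes, and 0.05 against -0.003 with offsets for length and GC content.

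Other genes of mitochondrial translation were listed by function and described by the same counts. Of 6 mitoribosome proteins under other symbols, 1 passed both thresholds against WT, in delE6/+ (16.7%, against 13.5% of all tested genes). It was Dap3, which encodes mS29 and lies on chromosome 3 between Mrpl24 and Mrpl9, at 152 and 148 CPM in WT and 219 and 223 CPM in delE6/+ libraries, a log2 fold change of 0.55 ± 0.05 (adjusted p = 2.57e-06). Of 19 mitochondrial aminoacyl-tRNA synthetases, 1 was higher past both thresholds in delE6/delE6 and 2 in delE6/+, against 6.12% and 6.60% of all tested genes. By the adjusted p, 6 were higher and 4 lower in delE6/delE6, against 18.3% and 17.1% of all tested genes. By the same rule 5 were higher in delE6/+, against 15.4%. The 2 in delE6/+ are genes of chromosome 3. Tars2 had a log2 fold change of 0.61 ± 0.05 (adjusted p = 3.45e-06) and Wars2 one of 1.04 ± 0.12 (adjusted p = 3.51e-05). In insASAY cells, 5 of the 19 synthetases were higher and 1 lower past both thresholds, against 11.5% and 9.85% of all tested genes, among them Rars2 at 0.60 ± 0.07 (adjusted p = 1.75e-05).

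Among 30 genes of mitoribosome assembly and rRNA modification, the counts past both thresholds were 2 higher and 1 lower in delE6/delE6 (10%, against 12.7% of all tested genes) and 7 higher and 3 lower in insASAY (33.3%, against 21.3%). In delE6/+ there were 0, against 13.5% of all tested genes, also 0 by DESeq2, with 2 higher and 1 lower by the adjusted p in edgeR and 4 higher and 2 lower at an unadjusted p under 0.05. The pseudouridine synthase gene Trub2 stood at 23.7 and 26.5 CPM in WT and 48.9 and 41.9 CPM in insASAY libraries, a log2 fold change of 0.85 ± 0.10 (adjusted p = 3.17e-05). The rRNA methyltransferase gene Mrm1 was lower there, at -0.59 ± 0.08 (adjusted p = 9.52e-05), and Fastkd5, whose protein processes mitochondrial mRNAs, was higher, at 1.37 ± 0.21 (adjusted p = 0.000206). Of 20 translation factors, 1 was higher in delE6/delE6, 2 in delE6/+ and 1 in insASAY past both thresholds (5%, 10% and 5%, against 6.12%, 6.60% and 11.5% of all tested genes), with Gatc, a subunit of the glutamyl-tRNA amidotransferase, in each of them.

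The same counts were made for the genes of other large complexes. The 85 tested cytosolic ribosomal protein genes had a median log2 fold change of -0.18 in delE6/delE6, -0.09 in delE6/+ and -0.19 in insASAY against WT. Of these, 67, 29 and 66 were lower by the adjusted p and 1, 4 and 1 higher, while 1 passed both thresholds, Rpl39l in delE6/+. The 81 tested nuclear genes of oxidative phosphorylation subunits had medians of -0.14, -0.04 and -0.12, with 35, 19 and 34 lower and 4, 6 and 5 higher by the adjusted p. The members had medians of -0.03, -0.08 and -0.02, with 12, 15 and 15 lower and 12, 3 and 21 higher. Of all tested genes, 17.1%, 16.2% and 24.1% were lower and 18.3%, 15.4% and 23.2% higher.

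The 13 mRNAs of mitochondrial DNA, which the mitoribosome translates, had a median log2 fold change of -0.19 in delE6/delE6, -0.42 in delE6/+ and 0.27 in insASAY cells. By library, the median log2 ratio of the 13 to the WT mean was -0.03 and -0.44 in the 2 delE6/delE6 clones, -0.60 and -0.22 in delE6/+, and 0.39 and 0.13 in insASAY, so the first delE6/delE6 clone lay within the WT libraries, at 0.07 and -0.08. In delE6/+ 3 of the 13 lay above WT, and in insASAY 12 did. By the adjusted p, 1 was higher and 5 lower in delE6/+, against 15.4% and 16.2% of all tested genes. Past both thresholds, 4 of the 13 were lower in delE6/+ and 3 were higher in insASAY, against 6.89% and 11.5% of all tested genes. DESeq2 had 3 lower in delE6/+ and 3 higher in insASAY past both thresholds. In delE6/delE6 there were 0, also by DESeq2, with 2 lower by the adjusted p in edgeR and 2 lower at an unadjusted p under 0.05. The mRNA mt-Nd1, of a subunit of respiratory complex I, was measured at 2329 and 2099 CPM in WT, 1241 and 1573 CPM in delE6/+, 2486 and 2115 CPM in delE6/delE6, and 4288 and 3467 CPM in insASAY libraries. Its log2 fold change was -0.65 ± 0.11 in delE6/+ (adjusted p = 0.000682) and 0.81 ± 0.11 in insASAY (adjusted p = 9.29e-05). In the same libraries the summed level of the ribosomal protein genes was 97.4% and 99.2% of WT. These libraries were made from poly(A) RNA, so a level of a mitochondrial mRNA also depends on its tail.

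**Figure D5:**
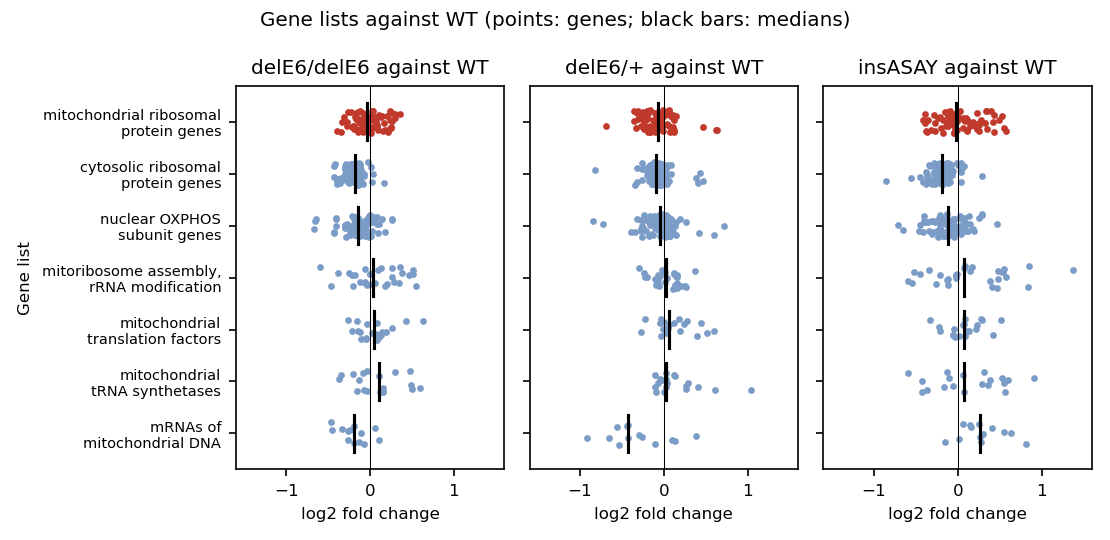
log2 fold change against WT (horizontal axes) of each tested gene in 7 lists (rows), with a point for each gene and a black bar at the median, for the 3 mutant genotypes. The mitochondrial ribosomal protein genes, in red, centre near 0, and most of the cytosolic ones lie to the left of 0. Most mRNAs of mitochondrial DNA lie to the left in delE6/+ and to the right in insASAY.

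Of 14 regulators of mitochondrial biogenesis, 1 was higher and 2 lower past both thresholds in delE6/delE6, 3 and 1 in delE6/+, and 1 and 2 in insASAY. These are 21.4%, 28.6% and 21.4% of the list, against 12.7%, 13.5% and 21.3% of all tested genes, and DESeq2 had 2 higher and 1 lower in delE6/+. Their median fold change in size was 0.25, 0.12 and 0.28 on the log2 scale, against 0.12, 0.11 and 0.15 for the members. Ppargc1b, a coactivator of nuclear genes for mitochondrial proteins, stood at 9.17 and 9.45 CPM in WT, 20.4 and 18.5 CPM in delE6/+, 7.04 and 5.54 CPM in delE6/delE6, and 5.43 and 4.87 CPM in insASAY libraries. Its log2 fold change was 1.06 ± 0.12 in delE6/+ (adjusted p = 2.22e-05), -0.57 ± 0.13 in delE6/delE6 (adjusted p = 0.00547) and -0.85 ± 0.14 in insASAY (adjusted p = 0.000244). Myc, a transcription factor with many ribosomal and mitochondrial targets, was higher in delE6/delE6, at 0.88 ± 0.13 (adjusted p = 0.000426), and lower in delE6/+, at -1.32 ± 0.16 (adjusted p = 4.87e-05). Mycn was higher in delE6/+, at 0.74 ± 0.12 (adjusted p = 0.000379), and in insASAY, at 0.71 ± 0.12 (adjusted p = 0.000316), and Esrrb was lower in delE6/delE6, at -1.04 ± 0.08 (adjusted p = 5.47e-06), and in insASAY, at -0.56 ± 0.07 (adjusted p = 6.35e-05). The remaining call was that of Ppargc1a in delE6/+, at 2.25 ± 0.68 (adjusted p = 0.0221), a gene under 0.5 CPM in all 8 libraries. In these libraries the median log2 fold changes of the mitochondrial ribosomal protein genes were those given above, between -0.08 and -0.02.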

How the data were processed

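RNA from 8 cultures of differentiated mouse ES cells (4 genotypes, 2 libraries each, grouped by GEO's labels) was sequenced as strand-specific poly(A) libraries. The authors mapped the reads to mm10 with STAR 2.7.2a and deposited, for each gene, the count of reads without regard to strand and on each strand, as whole numbers without normalization. The authors tested them with DESeq2 1.40.2. The reverse-strand counts were used. The annotation is not given in the sources used here, and 48058 of the 48440 gene IDs are in GENCODE M21, which gave symbols and coordinates. The lines that name no gene were left out of library sizes and tests. They are in 7 files and hold 26.2% to 29.0% of reads there.

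The main test was edgeR's quasi-likelihood test (version 4.0.16, R 4.3.3) with TMM scaling (factors 0.975 to 1.03) and filterByExpr (minimum count 10, minimum total 15). The 8 libraries were fitted together with a coefficient for each genotype, and p-values were adjusted by Benjamini-Hochberg over 17049 genes. CPM use TMM-scaled library sizes. Errors after ± are SE for log2 fold changes and SD otherwise, and intervals are 95%. The depth of 24618587 to 28445952 reads gave each tested member at least 141 reads per library. The steps were tested on simulated counts. Alternatives were DESeq2 1.42.0, other scalings, filters and strands, a fit of the 2 genotypes alone, a replicate block, length and GC offsets, and leaving out each library. Lists are described by counts and medians, with no test of a list. Members named are those past both thresholds, the 4 with the smallest adjusted p in each direction in each comparison with WT, the 3 highest and lowest per kilobase, the Mrps18 paralogs, those on chromosome 3, Mrps36, and the member that failed the filter. Other names (Mrpl17, Mrpl23, Mrpl40 and Mrpl45) were chosen after their values were seen. The members and lists were chosen with earlier results of these data known. Tables and plots used Python 3.11.15, pandas 2.3.3 and matplotlib 3.10.9. Kinase genes named after Rps6 and genes whose symbols mark them as pseudogenes were taken out of the cytosolic list after its values were seen.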

Additional observations from a re-analysis of the deposited data

Results flagged for a closer look

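The effects of 2 mutant lines against WT differed for 9 members, tested by the direct comparison of the lines in the edgeR fit (past both thresholds, 11 differences in all). For delE6/+ against delE6/delE6 the differences were 0.79 (Mrpl24), 0.61 (Mrpl9) and 0.52 (Mrps21) on the log2 scale. For insASAY against delE6/+ they were -1.02 (Mrpl24) and -0.56 (Mrpl9), and 0.77 (Mrps18c), 0.75 (Mrps12), 0.74 (Mrpl36), 0.60 (Mrpl18), 0.59 (Mrpl43) and 0.51 (Mrps11). Of these 9 members, Mrps21, Mrpl43 and Mrps11 were not past both thresholds under some alternatives. In 3 of the 11 both lines also passed the adjusted p against WT with opposite signs: Mrpl9 was above WT in delE6/+ and below it in delE6/delE6, Mrpl24 was above WT in delE6/+ and below it in insASAY, and Mrpl43 was below WT in delE6/+ and above it in insASAY. For Mrpl9 in delE6/delE6 the edgeR log2 fold change was only -0.15, with an adjusted p close to the threshold (0.0437). Groups of 2 libraries are too small for a check of single libraries that stand apart.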

How the results depend on the processing

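No member past both thresholds changed direction under any alternative. The counts of members past both thresholds were unchanged with a replicate block (0 in delE6/delE6, 3 in delE6/+ and 3 in insASAY against WT, and 3, 0 and 8 between the lines in the order of the report), and the numbers shared by replicates do not pair them, since the correlations of their deviations ran from -0.1 to 0.0672. Without the fold threshold the counts against WT were 24, 18 and 36 in delE6/delE6, delE6/+ and insASAY, and between the lines they were 33 in delE6/+ against delE6/delE6, 5 in insASAY against delE6/delE6 and 44 in insASAY against delE6/+. Leaving out each library gave 6 to 35, 8 to 30 and 23 to 45 against WT, and 19 to 44, 0 to 16 and 28 to 51 between the lines. With library totals in place of TMM the count of insASAY against WT was 7, by the addition of Mrpl20, Mrpl50, Mrpl51 and Mrps12. Leaving out each library in turn gave 3 to 5 members in insASAY against WT (5 without the second insASAY library), 3 to 6 in delE6/+ against delE6/delE6, 0 to 1 in insASAY against delE6/delE6 and 8 to 10 in insASAY against delE6/+, and no change in the other two comparisons.

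The medians over the members moved with scaling, and so did those of all tested genes. With length and GC offsets those of all tested genes moved less than those of the members, except in delE6/delE6 against WT. Against WT the median of delE6/delE6 was -0.0622 with upper-quartile factors and 0.0002 with library totals, that of delE6/+ was -0.0408 with library totals and -0.0425 with length and GC offsets, and that of insASAY was 0.0024 with upper-quartile factors and 0.0558 with library totals. In delE6/+ against delE6/delE6 it was -0.0542 with upper-quartile factors, -0.0775 with unstranded counts and -0.0703 with offsets. In insASAY against delE6/delE6 it was 0.0901, 0.0815 and 0.0103 with upper-quartile factors, library totals and offsets, and in insASAY against delE6/+ it was 0.1579 with library totals and 0.0451 with offsets. Leaving out each library gave -0.0354 to -0.0181, -0.0995 to -0.0637 and -0.0337 to -0.0118 against WT, and -0.1105 to -0.0763, 0.0165 to 0.0525 and 0.0849 to 0.1254 between the lines. Less the median of all tested genes under the same setting, the median of the members kept its sign in each comparison under every setting run. It ran from -0.0289 to -0.0134, -0.0918 to -0.0449 and -0.0305 to -0.0047 in delE6/delE6, delE6/+ and insASAY against WT, and from -0.107 to -0.0731, 0.0051 to 0.0458 and 0.0478 to 0.1184 between the lines. Past both thresholds or not, single members near the fold threshold changed side: Mrps21 in delE6/+ against delE6/delE6 (0.49 with offsets), Mrpl43 in insASAY against delE6/+ (0.49 with offsets), and Mrpl9 in delE6/+ (0.50) and Mrpl51 in insASAY (0.50) against WT, which passed with library totals. Replicates differed by more than counting error at this depth, with chi-square per degree of freedom from 2.22 in insASAY to 7.96 in delE6/delE6.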
